A study of Mus musculus with 8 samples.

Results

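Slitrk4, Rtn1, Lgi3, Phyhip, Colq and Cpne7 are genes best known from neurons or from the synapse between nerve and muscle, and their transcripts were counted here in kidney tubules. The 6 were selected on the difference between KO and Control in these same libraries, out of 42416 gene identifiers in the count files. Their KO and Control levels are therefore described without a test. All 6 were among the 14268 genes that passed the filter on low counts.

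RNA was sequenced from fragments of the mouse distal convoluted tubule (DCT), 1000 sorted fragments for each library, in 4 KO and 4 Control libraries. KO animals were labelled Cnb1fl Tg/Tg with NCCcre Tg/+ and TOMATO Tg/+, and Control animals Cnb1fl wt with NCCcre Tg/+ and TOMATO Tg/+. Animals of both groups thus carried the Cre, whose name refers to the NaCl cotransporter (NCC), and the fluorescent reporter. Every animal received tamoxifen, the drug that switches the Cre on. It was given over 5 days, each time 2 mg for an animal, and 3 weeks passed before tissue was collected. Cnb1, gene symbol Ppp3r1, encodes the regulatory B subunit of calcineurin. The labels name a different animal number for each library, and strain, sex and age are not used here.

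Calcineurin is a phosphatase that is switched on by calcium and calmodulin. It is abundant in neurons, and in many cells it removes phosphate from the transcription factors of the NFAT family so that they enter the nucleus. The DCT is a short segment of the nephron that takes up NaCl through the thiazide-sensitive cotransporter Slc12a3 and magnesium through the channel Trpm6. It is an epithelium and not a nervous tissue.

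Levels are given as CPM, which puts the counts of every library on one total, with library sizes scaled by the TMM method, and differences as log2 of KO over Control from edgeR's quasi-likelihood fit, with an approximate standard error (SE). A gene was called when its adjusted p in that fit was below 0.05. Total counts ranged from 18161442 to 45150953 in KO libraries and from 19911826 to 42389558 in Control libraries. Mitochondrially encoded genes held 13.4% to 18.4% of counts in KO libraries and 17% to 19.1% in Control libraries. Ppp3r1 had 80.7, 74.0, 97.7 and 92.5 CPM in KO replicates 1 to 4, against 108, 97.4, 99.8 and 84.4 CPM in Control replicates 1 to 4. Its difference was -0.18 ± 0.13 (SE, edgeR quasi-likelihood adjusted p = 0.548). Its exons share 462 bases with Wdr92, and which exons the Cre removes is not given in the sources used here, so this count does not check the labels. Slc12a3 averaged 5120 ± 1988 CPM in KO libraries and 6783 ± 1045 CPM in Control libraries (SD, n = 4 each).

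Over all genes, 316 of 14268 were called (2.21%), 191 of them higher in KO (1.34%) and 125 lower (0.876%). An unadjusted p below 0.05 was reached by 1989 genes (13.9%). The CPM of the KO and Control libraries did not overlap for 1347 genes (9.44%). Of the 6 genes, 1 was called higher and 5 were called lower, and for none did the groups overlap. The choice of the genes fixes these counts, and nothing is read from them. Without KO replicate 2, 2 of the 6 were called, while over all genes 36 were called instead of 316. Without Control replicate 3 or 4, 4 of the 6 were called, and 5 without KO replicate 1, KO replicate 4 or Control replicate 2. A block for the animal number series in the labels left 4 of the 6 called, of 29 over all genes.

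**Figure D1:**
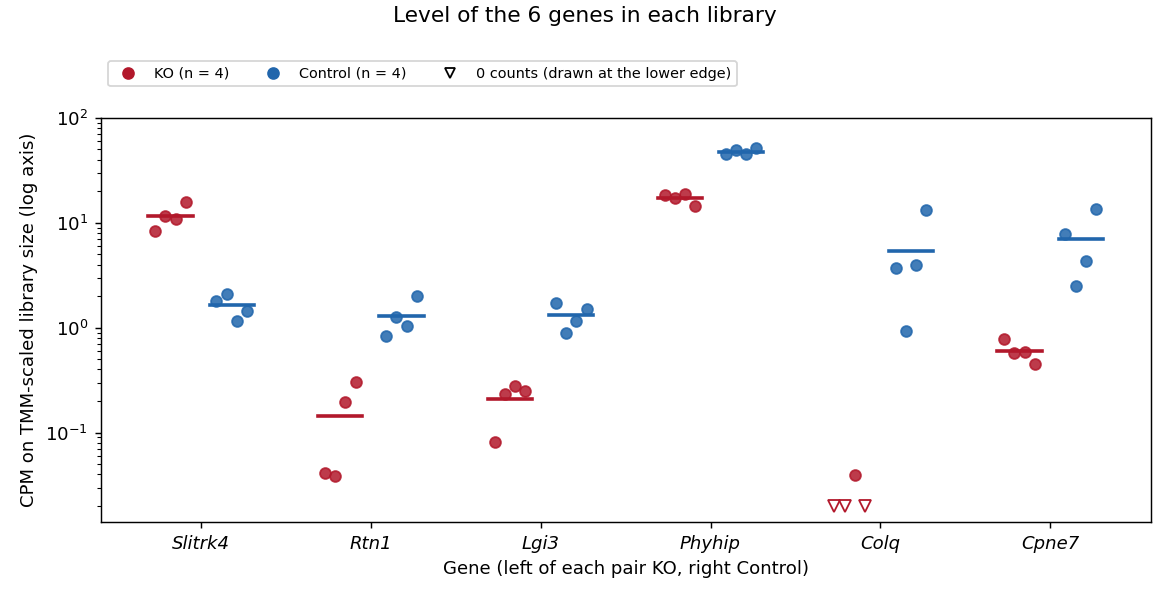
Level of each of the 6 genes in every library, in CPM on a log axis, with KO libraries left of Control libraries, points for libraries, bars for group means and triangles at the lower edge for libraries with 0 counts. Slitrk4 is the gene that is higher in KO, Colq has a count in only 1 KO library, and the Control libraries of Colq and Cpne7 are the most spread.

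Slitrk4 is a transmembrane protein with leucine-rich repeats outside the cell. Proteins of its family organise synapses by binding receptor tyrosine phosphatases on the opposite cell. The gene (ENSMUSG00000046699) lies on the minus strand of the X chromosome, X:64264885-64276996 in GRCm38. It had 8.41, 11.6, 10.98 and 15.6 CPM in KO replicates 1 to 4, against 1.80, 2.12, 1.15 and 1.45 CPM in Control replicates 1 to 4. The lowest KO library was 3.97 times the highest Control library. The means were 11.7 ± 2.99 CPM in KO and 1.63 ± 0.42 CPM in Control (SD, n = 4 each), a log2 difference of 2.81 ± 0.26. The relative spread was alike in both groups, with a coefficient of variation of 25.7% in KO and 25.8% in Control. The values rest on 1300 counts in KO and 176 in Control. By CPM per kilobase of exon, Slitrk4 stood at percentile 4.8 of all tested genes in Control and at percentile 24.4 in KO.

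Slitrk4 was the only gene of its family with enough counts to be tested. Slitrk1 had 45 counts over all 8 libraries, Slitrk2 had 2, Slitrk3 had 0, Slitrk5 had 13 and Slitrk6 had 60. The phosphatase receptors that bind proteins of this family in synapses were abundant by comparison, although they did not pass the test. Ptprs had 37.6 ± 5.995 CPM in KO and 23.9 ± 5.21 CPM in Control, a difference of 0.66 ± 0.17 (edgeR quasi-likelihood adjusted p = 0.103). Ptprd had 107 ± 11.2 CPM in KO and 78.0 ± 15.1 CPM in Control, a difference of 0.45 ± 0.15 (edgeR quasi-likelihood adjusted p = 0.215). Of the 15 listed Slitrk relatives and partners, 5 were tested and 0 were called, although 3 had an unadjusted p below 0.05, all higher. DESeq2 and limma-voom each called Ptprs higher.

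Lgi3 is a secreted glycoprotein with leucine-rich repeats. Its family, named for LGI1, binds the membrane proteins ADAM22 and ADAM23 at synapses and along axons. The gene (ENSMUSG00000033595) lies on the plus strand at 14:70530685-70538324. It had 4, 6, 7 and 5 counts in KO replicates 1 to 4 and 35, 37, 22 and 30 counts in Control replicates 1 to 4. In CPM these were 0.0823, 0.231, 0.275 and 0.251 in KO, against 1.71, 0.890, 1.15 and 1.504 in Control. KO libraries were all low and close to the level of a few reads. The log2 difference was -2.68 ± 0.45, and with 22 counts in KO its size is loosely held.

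Among the relatives of Lgi3, Lgi1 had 1 count and Lgi2 had 6 counts in all libraries together. Lgi4 was tested at 0.702 ± 0.201 CPM in KO and 0.729 ± 0.308 CPM in Control (SD, n = 4 each). Its difference of -0.05 had no stable sign over other settings. Adam22, the partner receptor, had 16.9 ± 2.61 CPM in KO and 12.9 ± 2.17 CPM in Control (edgeR quasi-likelihood adjusted p = 0.338). Of the 13 listed genes of this group, 7 were tested and 0 were called, with 1 at an unadjusted p below 0.05. DESeq2 and limma-voom also called 0 of them.

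Rtn1 encodes a reticulon, a protein whose hairpins bend the membrane of the endoplasmic reticulum into tubules. It is abundant in neurons and neuroendocrine cells. The gene (ENSMUSG00000021087) lies on the minus strand at 12:72211752-72409054 and has several starts. It had 2, 1, 5 and 6 counts in KO replicates 1 to 4, against 17, 53, 20 and 40 counts in Control replicates 1 to 4. In CPM these were 0.0411, 0.0386, 0.197 and 0.301 in KO, against 0.8289, 1.27, 1.05 and 2.01 in Control. KO replicates 1 and 2 held nearly nothing, and the highest KO library was below the lowest Control library. The log2 difference was -3.28 ± 0.62. A count of 3, taken as the counting floor, is worth 0.0617 to 0.157 CPM in these libraries, so KO replicates 1 and 2 were under it.

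RefSeq's promoter windows on GRCm38.p6, from 250 bases before to 50 bases after a start, hold 3 starts for Rtn1. The upstream start and a downstream start are shown because reads of all Rtn1 forms are summed in 1 count, and the windows differ in base composition. They are written 5′ to 3′ on the minus strand, and capitals mark matches to the searched motifs. The upstream window lies at chr12:72409005-72409304 and has 46.3% G and C with 3 CpG. The downstream window lies at chr12:72236678-72236977 and has 73.3% G and C with 43 CpG.
Rtn1 upstream start: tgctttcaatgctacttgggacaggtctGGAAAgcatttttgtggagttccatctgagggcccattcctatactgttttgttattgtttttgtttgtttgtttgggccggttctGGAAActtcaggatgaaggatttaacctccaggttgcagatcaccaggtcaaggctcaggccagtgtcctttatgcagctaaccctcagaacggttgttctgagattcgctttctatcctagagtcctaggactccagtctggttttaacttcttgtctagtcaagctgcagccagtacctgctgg
Rtn1 downstream start: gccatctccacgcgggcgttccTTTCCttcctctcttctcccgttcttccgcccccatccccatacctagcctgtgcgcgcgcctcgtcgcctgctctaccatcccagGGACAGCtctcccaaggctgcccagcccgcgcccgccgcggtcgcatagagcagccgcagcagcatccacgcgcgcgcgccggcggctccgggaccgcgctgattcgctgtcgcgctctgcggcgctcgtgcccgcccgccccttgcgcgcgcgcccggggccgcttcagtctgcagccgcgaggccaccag

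Motifs were searched on either strand, with a match on the other strand shown as TTTCC for GGAAA, and no 2 matches overlap in these windows. GGAAA, the core bound by NFAT proteins, had 2 matches in the upstream window and 1 in the downstream window. It occurs in 61.3% of all 32851 promoter windows of that length. GGACAGC, the right-hand site of the neuron-restrictive silencer element, had 1 match in the downstream window and occurs in 6.56% of all windows. TCAGCAC, its left-hand site, and TGACG and CACGTG had no match in either window. They occur in 5.12%, 20.8% and 7.15% of all windows in that order. The window of the other start, at chr12:72235697-72235996, had no match to any of the 5 motifs.

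The reticulons that most cells use were abundant in the tubules. Rtn3 had 386, 397, 439 and 363 CPM in KO replicates 1 to 4, against 638, 485, 488 and 525 CPM in Control replicates 1 to 4. The groups did not overlap, but the difference of -0.43 ± 0.13 did not pass (edgeR quasi-likelihood adjusted p = 0.161). Rtn4, also called Nogo, had 141 ± 50.4 CPM in KO and 102 ± 9.98 CPM in Control (SD, n = 4 each), and KO replicate 4 alone reached 215.5 CPM. Its difference was 0.46 ± 0.21 (edgeR quasi-likelihood adjusted p = 0.366). Rtn2 had 1.59 ± 0.691 CPM in KO and 2.26 ± 1.42 CPM in Control, with groups that overlapped. Arl6ip1, another protein that shapes this membrane, had 392 ± 68.4 CPM in KO and 613 ± 99.96 CPM in Control (edgeR quasi-likelihood adjusted p = 0.0967). Of 19 listed reticulons and membrane-shaping proteins, 15 were tested and 0 were called, with 1 higher and 2 lower at an unadjusted p below 0.05. DESeq2 called Arl6ip1 and Rtn3 lower, and limma-voom called Arl6ip1 lower.

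Phyhip binds phytanoyl-CoA hydroxylase, the peroxisomal enzyme that starts the breakdown of phytanic acid, and is best known from brain. The gene (ENSMUSG00000003469) lies on the plus strand at 14:70457476-70468832. It had 18.3, 17.2, 18.8 and 14.3 CPM in KO replicates 1 to 4, against 45.3, 49.7, 44.9 and 51.1 CPM in Control replicates 1 to 4. The replicates were tight and the groups lay far apart. The means were 17.1 ± 1.99 CPM in KO and 47.8 ± 3.13 CPM in Control (SD, n = 4 each), a log2 difference of -1.48 ± 0.12. Phyhip rests on 2097 counts in KO and 4874 in Control, the most of the 6 genes. By CPM per kilobase of exon it stood at percentile 56.3 of the tested genes in KO and at percentile 80.3 in Control. On that measure Phyhip was a well-expressed gene of these tubules in Control.

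The close relative Phyhipl was also present. It had 16.6, 22.4, 24.1 and 21.7 CPM in KO replicates 1 to 4, against 19.9, 30.8, 26.3 and 16.8 CPM in Control replicates 1 to 4. The groups overlapped, and the difference was -0.15 ± 0.20 (edgeR quasi-likelihood adjusted p = 0.747). Phyh, the hydroxylase itself, had 598 ± 65.2 CPM in KO and 724 ± 124 CPM in Control (edgeR quasi-likelihood adjusted p = 0.447). All 7 listed genes of phytanate oxidation and Phyhip binding were tested and 0 were called, with 0 at an unadjusted p below 0.05. DESeq2 and limma-voom called 0 as well.

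Colq encodes the collagen tail that fastens acetylcholinesterase to the basal lamina of the synapse between nerve and muscle. The gene (ENSMUSG00000057606) lies on the minus strand at 14:31523082-31591343. It had 0, 0, 1 and 0 counts in KO replicates 1 to 4, against 76, 39, 76 and 262 counts in Control replicates 1 to 4. In CPM the Control libraries held 3.71, 0.938, 3.97 and 13.1. Every Control library had Colq, with Control replicate 4 far above the rest, and a single read was counted in KO. The ratio of KO to Control was 0.00186, with an exact 95% interval of 4.70e-05 to 0.0104 that covers counting error only. Leaving out KO replicate 1 gave 0.00313. Leaving out Control replicate 2 gave 0.0012, and leaving out Control replicate 4 gave 0.00355. Without KO replicate 3 no read was left in KO, and Colq was then at least 141-fold lower, taken against 3 counts over the group.

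Colq shares 199 exon bases, 5.2% of its exons, with the predicted gene Gm49387 on the same strand. Gm49387 had 28.5 ± 6.12 CPM in KO and 30.5 ± 4.17 CPM in Control (edgeR quasi-likelihood adjusted p = 0.798), at 6442 counts in all. How reads in the shared bases were assigned is not given in the sources used here. Acetylcholinesterase itself, Ache, had a difference of 0.85 (edgeR quasi-likelihood adjusted p = 0.437). The basal lamina protein to which Colq binds, perlecan (Hspg2), had a difference of 1.04 (edgeR quasi-likelihood adjusted p = 0.223).

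Of 18 listed genes of the collagen tail and the endplate, 11 were tested and 1 was called, beside 2.21% of all tested genes. That gene was Agrn, agrin, the nerve-derived proteoglycan that gathers acetylcholine receptors on muscle and that is also a common protein of kidney basement membranes. It rose to 172, 134, 125 and 239 CPM in KO replicates 1 to 4, against 57.5, 85.7, 79.9 and 92.2 CPM in Control replicates 1 to 4. Every KO library was above every Control library, and the difference was 1.09 ± 0.22 (edgeR quasi-likelihood adjusted p = 0.0409). Agrn no longer passed in 9 of 17 planned settings. Those were 7 of the 8 fits that leave out 1 library (all but that without KO replicate 3), a file name term and a block for the animal number series. The adjusted p over all settings ran from 0.000338 to 0.126. Chrnb1, a subunit of the muscle acetylcholine receptor, had a difference of 1.25 (edgeR quasi-likelihood adjusted p = 0.0692), and DESeq2 called it higher. An unadjusted p below 0.05 was reached by 5 of the 11 tested genes, beside 13.9% of all genes. Of these 5, Agrn, Chrnb1, Hspg2 and Dag1 were higher, and Prima1 was lower at -1.08 (edgeR quasi-likelihood adjusted p = 0.347).

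Cpne7 is a copine, a protein that binds membrane phospholipids when calcium rises. The gene (ENSMUSG00000034796) lies on the plus strand at 8:123117374-123135182. It had 0.781, 0.578, 0.590 and 0.451 CPM in KO replicates 1 to 4, against 7.90, 2.50, 4.29 and 13.5 CPM in Control replicates 1 to 4. KO libraries were alike and all low, while the highest Control library was 5.41 times the lowest. The means were 0.600 ± 0.136 CPM in KO and 7.06 ± 4.87 CPM in Control (SD, n = 4 each), a log2 difference of -3.51 ± 0.52. The values rest on 77 counts in KO and 618 in Control. The exons share 67 bases with the microRNA gene Mir7080, which had 7 counts.

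Other copines were present at levels above and below that of Cpne7. Cpne3 had 89.6 ± 12.3 CPM in KO and 73.4 ± 16.97 CPM in Control, with a difference of 0.29 (edgeR quasi-likelihood adjusted p = 0.503). Cpne1 had 42.3 ± 2.42 CPM in KO and 36.3 ± 4.89 CPM in Control, but 83.3% of its exon bases lie in the gene model Gm28036 as well. Cpne4 had 12.2 ± 3.62 CPM in KO and 10.9 ± 3.81 CPM in Control, and Cpne2 had 0.692 ± 0.405 CPM in KO and 0.919 ± 0.302 CPM in Control. Cpne8 had 0.370, 0.386, 1.34 and 0.251 CPM in KO replicates 1 to 4, against 1.51, 1.16, 1.10 and 0.852 CPM in Control replicates 1 to 4. KO replicate 3 lay among the Control libraries, and the difference was -0.98 ± 0.52 (edgeR quasi-likelihood adjusted p = 0.422). Without KO replicate 3 it was -1.75 ± 0.39 (edgeR quasi-likelihood adjusted p = 0.05004), and the adjusted p over all settings ran up to 0.721. Cpne5, Cpne6 and Cpne9 had 1, 0 and 3 counts in all. Of 8 listed copines 5 were tested and 0 were called, with 0 at an unadjusted p below 0.05. DESeq2 and limma-voom called 0 too.

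Levels of different genes were set side by side per kilobase of exon. In KO libraries Phyhip came first at 5.89 ± 0.685 CPM per kilobase and Slitrk4 second at 1.33 ± 0.342. Cpne7 followed at 0.114, Lgi3 at 0.0538, Rtn1 at 0.0290 and Colq at 0.00259 CPM per kilobase. In Control libraries Phyhip also came first, at 16.4 ± 1.08 CPM per kilobase. Colq at 1.43 and Cpne7 at 1.34 CPM per kilobase came next, and their ranges overlapped. Lgi3 at 0.337, Rtn1 at 0.259 and Slitrk4 at 0.187 CPM per kilobase came last, and each overlapped the next. Slitrk4 was thus last of the 6 in Control and second in KO. In KO, Lgi3 overlapped Rtn1, and Rtn1 overlapped Colq.

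Likeness between genes was measured as the root mean square difference of log2(CPM + 1) over the 8 libraries, after each gene was centred on its own mean. It is a description, and the groups that chose the 6 genes set most of it. Colq and Cpne7 were each among the 2 genes most like the other, at a distance of 0.315. The other gene nearest to Cpne7 was Kcns1, a subunit of potassium channels, at 0.298, and Kcns1 was also second for Colq at 0.463. Kcns1 had 0.391, 0.231, 0.944 and 0.150 CPM in KO replicates 1 to 4, against 4.78, 2.24, 3.76 and 7.72 CPM in Control replicates 1 to 4. In all 3 genes, Control replicate 2 was the lowest Control library and Control replicate 4 the highest. The matching used these same 8 libraries and so favours a shared order, here and for the matches below.

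The genes nearest to Slitrk4 were Rrm2, at 0.371, and Mki67, at 0.406, which are both made in dividing cells. Mki67 had 14.9, 22.3, 10.8 and 30.4 CPM in KO replicates 1 to 4, against 1.95, 3.30, 3.82 and 3.81 CPM in Control replicates 1 to 4. KO replicate 4 was highest for Mki67 and Rrm2, as it was for Slitrk4. Rtn1 was nearest to Cnnm2, at 0.158, and Tbc1d14, at 0.164. Cnnm2 is a membrane protein needed for magnesium handling in this segment, and it had 62.1 ± 6.31 CPM in KO and 143 ± 28.6 CPM in Control. Lgi3 was nearest to Tdrd3, at 0.0946, and Llcfc1, at 0.109. Adding 1 to CPM shrinks the changes of genes near 1 CPM, such as Rtn1 and Lgi3. Small distances for these genes therefore do not mean like fold changes. The log2 difference was -2.68 for Lgi3, against -0.80 for Tdrd3 and -1.54 for Llcfc1. For Rtn1 it was -3.28, against -1.21 for Cnnm2 and -0.93 for Tbc1d14. Phyhip was nearest to Inpp5a, at 0.198, which removes a phosphate from the calcium-releasing messenger inositol trisphosphate, and Rnf186, at 0.199. Inpp5a had 37.4 ± 2.49 CPM in KO and 107 ± 22.2 CPM in Control.

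The related genes numbered 135 over 9 lists: relatives and partners of each of the 6, general neuron genes, transmitter genes of nerve endings, and the silencing complex that keeps neuron genes off in other cells. Of these, 69 were tested, 2 were called higher and 0 were called lower, while 67 did not pass. Over all tested genes, 1.34% were called higher and 0.876% lower. At an unadjusted p below 0.05 there were 12 higher and 3 lower, 15 of 69 beside 13.9% of all genes. Of all 14268 tested genes, 1112 were higher and 877 lower at that p. DESeq2 called 6 of the 69 higher and 2 lower, while over all genes it called 749 of 14268, against 316 with edgeR. The median log2 difference of the tested related genes was 0.07, against -0.02 for all tested genes. Scaling by library totals moved the median of all genes to 0.13 and that of the related genes to 0.23.

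**Figure D2:**
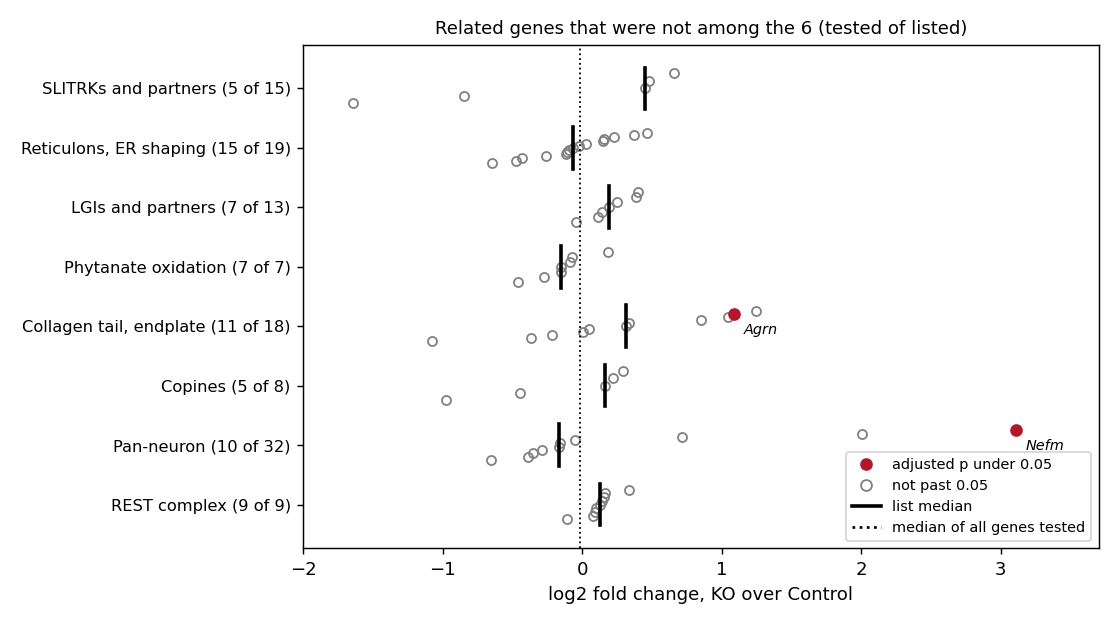
Log2 difference of KO over Control for each tested gene of the related lists, with 1 row for each list that had tested genes, a bar at the list's median and the called genes filled. Agrn and Nefm are the called genes, and the other points lie on both sides of 0.

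The other called gene was Nefm, the medium chain of the neurofilaments that fill axons. It rose to 22.1, 12.7, 6.61 and 16.5 CPM in KO replicates 1 to 4, against 2.10, 1.61, 1.31 and 1.70 CPM in Control replicates 1 to 4. The groups did not overlap, and the difference was 3.11 ± 0.36 (edgeR quasi-likelihood adjusted p = 0.00505). Nefm passed in all 17 planned settings, with differences of 2.82 to 3.34. Within the animal number series of 3 KO and 2 Control libraries, 0 related genes were called. Its exons overlap those of Nefl, the light chain, by 1108 bases on the opposite strand, and without a known strand setting reads there cannot be told apart. Nefl had a difference of 2.00 (edgeR quasi-likelihood adjusted p = 0.164).

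The 32 general neuron genes had 10 tested members, of which 1 was called, beside 2.21% of all tested genes. Their median difference was -0.17, with 3 positive and 7 negative. An unadjusted p below 0.05 was reached by 3, all higher, beside 13.9% of all genes. DESeq2 called Map2, Nefl and Nefm, and limma-voom called Nefm. Map2 had 30.7 ± 7.56 CPM in KO and 18.6 ± 4.32 CPM in Control, without overlap (edgeR quasi-likelihood adjusted p = 0.138). Of the 32, Snap25, Elavl4, Gap43, Scg2 and Chga had 0 counts in all libraries. Others were well counted, with Mapt at a mean of 63.0 CPM in KO and 65.2 CPM in Control. Syp averaged 25.7 CPM in KO and 28.8 CPM in Control. The summed level of the 32 genes was 266 to 313 CPM in KO libraries and 279 to 303 CPM in Control libraries (exact two-sided permutation p = 0.857). Most of that sum came from Vamp2, Mapt, Map2 and Syp. None of the 14 transmitter genes of nerve endings had enough counts to be tested, and Th, Slc6a2, Chat, Slc18a3, Slc5a7, Tac1 and Slc17a6 were at 0 in all libraries. Their sum was 0.270 to 0.551 CPM in KO and 0.105 to 0.536 CPM in Control. All 9 genes of the silencing complex were tested and 0 were called, with 0 at an unadjusted p below 0.05 and with DESeq2 and limma-voom also at 0. Rcor1, a scaffold of that complex, had a difference of 0.33 ± 0.17 (edgeR quasi-likelihood adjusted p = 0.415).

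Markers of other cells that hold some of the 6 genes elsewhere in the body were counted in the same way. The 13 Schwann cell markers summed to 88.0 to 98.3 CPM in KO and 96.8 to 127.9 CPM in Control (exact two-sided permutation p = 0.0857, adjusted over 12 lists 0.206). Most of that sum came from Erbb3 and Mbp. Erbb3 had 56.4 ± 6.04 CPM in KO and 68.45 ± 12.5 CPM in Control. Mbp had 29.3 ± 0.803 CPM in KO and 32.5 ± 3.02 CPM in Control. Cdh19 and Foxd3 were at 0 and Sox10 had 1 count. The 14 skeletal muscle markers summed to 1.28 to 3.91 CPM in KO and 1.83 to 3.01 CPM in Control (exact two-sided permutation p = 0.429). Acta1 had 54 counts in all, of which 52 lay in a single KO library, at 2.61 CPM. Ckm, Myh1, Myh2, Myh4, Tnnt3, Myog and Myod1 were at 0. Mylpf, a fast myosin light chain, was counted in all 8 libraries, at 1.01 ± 0.420 CPM in KO and 1.67 ± 0.642 CPM in Control (SD, n = 4 each). Des and Actn3 were also counted in all 8. The part of muscle RNA in the levels of the 6 genes was not tested.

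**Figure D3:**
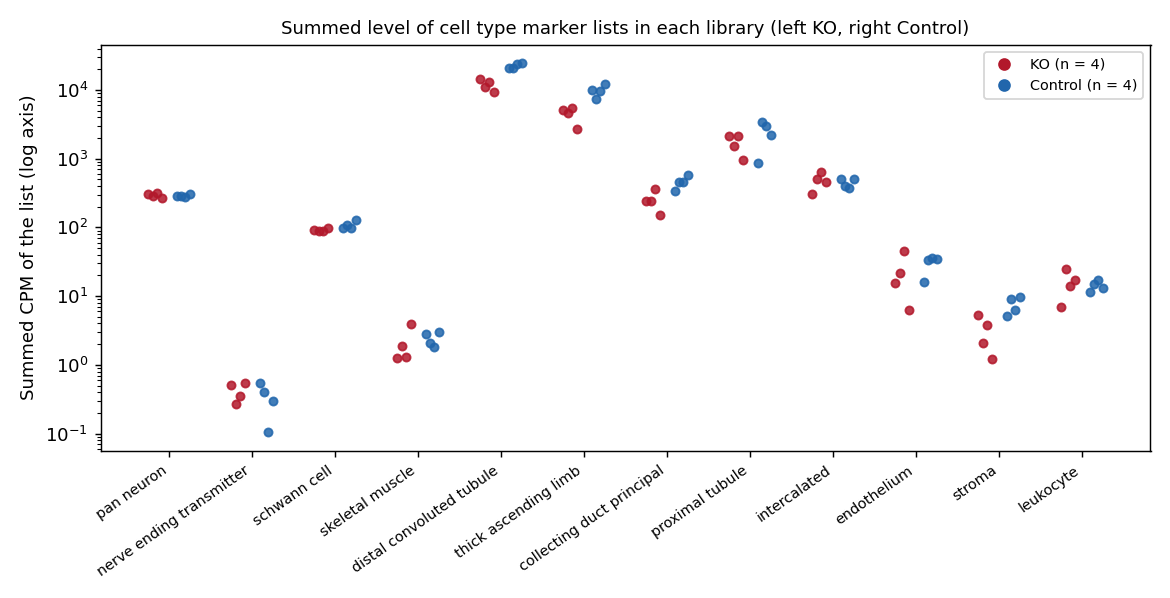
Summed CPM of each cell type marker list in every library, on a log axis, with KO libraries beside Control libraries. The DCT and thick ascending limb lists are lower in all KO libraries than in any Control library, and the neuron, muscle and nerve ending lists overlap.

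Marker lists of kidney tubule cells differed in how far KO and Control lay apart. None passed after adjustment over the 12 lists, but 4 against 4 libraries could hardly give a pass there. Even a list whose groups are fully apart passes only if many of the other lists reach the smallest possible p too. Nothing is therefore read from the lack of a pass. The 12 DCT markers summed to 9242 to 14490 CPM in KO and 21100 to 24610 CPM in Control. Most of that sum came from Slc12a3, Egf, Wnk1 and Calb1. Of these 12 genes 1 was called higher (Tfap2b) and 5 were called lower (Pvalb, Trpm6, Calb1, Klhl3 and Wnk4). Over all tested genes 1.34% were called higher and 0.876% lower. Egf had 2702 ± 1216 CPM in KO and 6943 ± 1006 CPM in Control (edgeR quasi-likelihood adjusted p = 0.0552). Slc12a3, Sall3 and Emx1 overlapped between the groups and were not called (edgeR quasi-likelihood adjusted p = 0.490, 0.668 and 0.861). The 4 markers of the thick ascending limb, the segment just before the DCT, summed to 2710 to 5398 CPM in KO and 7395 to 12160 CPM in Control. Most of that sum came from Umod, at 3859 ± 978 CPM in KO and 8812 ± 2056 CPM in Control. Slc12a1, Cldn10 and Cldn16 overlapped between the groups and were not called (edgeR quasi-likelihood adjusted p = 0.368, 0.345 and 0.424). The DCT list and the thick ascending limb list both gave the smallest p that 4 against 4 libraries allow (exact two-sided permutation p = 0.0286, adjusted over 12 lists 0.171). The 6 markers of collecting duct principal cells summed to 151 to 366 CPM in KO and 341 to 588 CPM in Control (exact two-sided permutation p = 0.0571, adjusted 0.171). All 6 genes were lower at an unadjusted p below 0.05, and edgeR called 0 of them. DESeq2 and limma-voom each called Hsd11b2 and Scnn1g. The 7 stromal markers summed to 1.20 to 5.37 CPM in KO and 5.17 to 9.67 CPM in Control (exact two-sided permutation p = 0.0571, adjusted 0.171). The 7 proximal tubule markers summed to 972 to 2146 CPM in KO and 878 to 3474 CPM in Control, and the 6 intercalated cell markers to 304 to 651 CPM in KO and 373 to 513 CPM in Control. Both pairs of groups overlapped (exact two-sided permutation p = 0.514 and 0.857). In fragments of many cells, fewer cells of a type and less RNA per cell cannot be told apart. The part of these lists in the levels of the 6 genes was not tested.

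Phyhip and Lgi3 are near neighbours on chromosome 14, with 61852 bases between them and both on the plus strand. The annotated genes between them are 2, of which Bmp1, a protease that trims procollagens, was tested. Bmp1 had 2.49, 2.39, 1.97 and 5.61 CPM in KO replicates 1 to 4, against 1.22, 2.12, 1.62 and 1.10 CPM in Control replicates 1 to 4. The groups overlapped, and the difference of 1.01 ± 0.39 was of opposite sign to those of Phyhip and Lgi3 (edgeR quasi-likelihood adjusted p = 0.277). The genes on the outer sides of the pair, Polr3d and Reep4, had differences of 0.09 and 0.15.

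Around Rtn1, Colq and Cpne7, the nearest tested genes also did not pass. Beside Rtn1, Jkamp had a difference of -0.18 and Pcnx4 of 0.13. Beside Colq, Eaf1 had a difference of -0.03 and Hacl1 of -0.07. Beside Cpne7, Rpl13 had a difference of -0.39 and Dpep1 of -0.56. Slitrk4 had no tested gene within 250 kilobases. Within 250 kilobases of the other 5 genes lay 42 other tested genes. Of these, 0 were called by edgeR, beside 2.21% of all tested genes. An unadjusted p below 0.05 was reached by 4 of the 42, beside 13.9% of all tested genes.

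**Figure D4:**
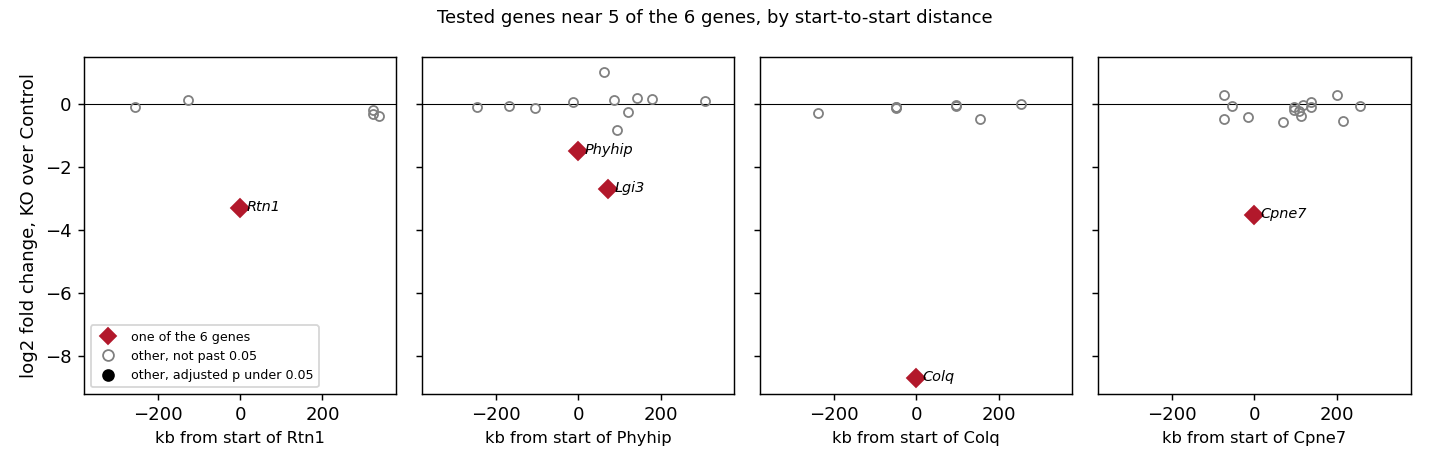
Log2 difference of KO over Control for tested genes by distance between starts, in kilobases, around Rtn1, the pair Phyhip and Lgi3, Colq, and Cpne7, drawn as diamonds. No neighbour was called, Bmp1 is the highest of them at 1.01, and the fitted value drawn for Colq depends on the prior count because KO held 1 read.

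The animal numbers in the labels fall into series, and the deposited file names have 2 forms, which are the only signs of batches. Whether either is a batch of handling is not given in the sources used here. Within the series that holds 3 KO and 2 Control libraries, differences were 2.90 for Slitrk4, -2.74 for Rtn1, -1.99 for Lgi3, -1.51 for Phyhip and -2.64 for Cpne7. Colq had -7.02 there, a fitted value that rests on a single read in KO. The sign of each gene was the same there as over all libraries. Rtn1, Lgi3 and Cpne7 were smaller in size there, against -3.28, -2.68 and -3.51 over all libraries. In that fit 1 of the 6 was called, of 16 over all genes. Of the other series, 1 holds Control replicate 4 alone, the library with the most Colq and Cpne7, and 1 holds 1 KO and 1 Control library. In that pair, Slitrk4 had 8.41 CPM in KO and 1.80 CPM in Control, while Cpne7 had 0.781 CPM in KO and 7.90 CPM in Control.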

How the data were processed

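The files hold raw whole-number counts per Ensembl gene, deposited by the authors without normalization, for 8 libraries of RNA from sorted DCT fragments. The submitters' processing notes name STAR 2.7.4a, fastp 0.20.0, bcl2fastq 2.20 and the build GRCm38.p6. The sources used here give neither the counting program, nor the annotation release, nor the strand setting. GENCODE vM21 named 42347 of 42416 identifiers, and the other 69 held 0.0199% of counts. Groups come from the genotype labels, and replicate numbers only name libraries. Nothing says that animals were handled apart, so p-values measure the spread between these libraries.

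Genes were kept by filterByExpr, scaled by TMM and compared by the quasi-likelihood F test of edgeR 4.0.16 (two-sided, R 4.3.3) with genotype alone, and p-values were adjusted by Benjamini-Hochberg over all genes tested. The fit was tested on simulated data. SE is the log2 difference over the square root of F. Exact tests and intervals used Python 3.11.15 and SciPy 1.17.1. PCR reads are not independent molecules, so intervals and floors cover counting error only. The 6 genes and all lists were chosen with earlier results of these data known. Genes were named by rule: the 6, their tested and untested relatives, the nearest tested genes, up to 4 called genes in each list or the 2 with the smallest p, and the 2 most alike to each of the 6. Not every gene taken by this rule is reported here. Ache, Hspg2, Chrnb1, Nefl and Gm49387 were named after their values were seen. Promoters come from RefSeq on GRCm38.p6, in which 1 of the 6 genes matched. Alternatives were DESeq2 1.42.0, limma-voom (limma 3.58.1), other scalings and filters, terms for file name form and animal number series, and leaving out each library.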

Additional observations from a re-analysis of the deposited data

Results flagged for a closer look

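Within a group of 4, a library stood apart when its gap to the nearest other library was above Dixon's 95% critical value as a share of the group's range. Of 124 groups of values examined, 10 held such a library, and chance gives about 1 in 20. Among the 6 genes this was Colq in KO replicate 3, at 0.0394 CPM with the other KO libraries at 0, which is a single read.

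Among relatives, Cpne8 had 1.34 CPM in KO replicate 3, with the other KO libraries at 0.251 to 0.386 CPM. Cpne3 had 48.0 CPM in Control replicate 1, with the other Control libraries at 80.1 to 83.5 CPM. Rtn4 had 215.5 CPM in KO replicate 4, with the other KO libraries at 106 to 124 CPM. Phyh had 501 CPM in KO replicate 4, with the other KO libraries at 622 to 641 CPM.

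Among neighbours and genes of like pattern, Bmp1 had 5.61 CPM in KO replicate 4, with the other KO libraries at 1.97 to 2.49 CPM. Rpl13 had 73.0 CPM in KO replicate 3, with the other KO libraries at 85.4 to 87.8 CPM. Tdrd3 had 75.1 CPM in KO replicate 3, with the other KO libraries at 67.0 to 67.6 CPM.

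Slc12a3 had 8074 CPM in KO replicate 1, with the other KO libraries at 3911 to 4521 CPM. Summed endothelial markers were 16.1 CPM in Control replicate 1, with the other Control libraries at 33.3 to 36.3 CPM. No cause of these values was tested.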

How the results depend on the processing

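No paired analysis was possible because the labels give no replicate numbers that match single KO and Control libraries. The animal number series, which cross the groups, were fitted as a block. Over the planned settings, the log2 difference ran from 2.64 to 2.98 for Slitrk4, -3.86 to -2.87 for Rtn1, -2.88 to -2.35 for Lgi3, -1.53 to -1.33 for Phyhip and -3.80 to -2.81 for Cpne7. Requiring 1 CPM or more in 4 libraries dropped Rtn1, Lgi3 and Colq, so they have no value there. Within the animal number series of 3 KO and 2 Control libraries, an alternative chosen after seeing the data, Lgi3 was at -1.99 and Cpne7 at -2.64. Leaving out 1 library gave Colq ratios of 0.0012 to 0.00355, and without KO replicate 3, with no read left in KO, an upper bound of 0.00709. Counts of calls moved more. Genes called higher numbered 191, against 422 with DESeq2, 105 with a term for file name form, 5 with a block for animal number series, 3 within that series and 15 to 257 when 1 library was left out. Genes called lower numbered 125, against 327 with DESeq2, 233 with limma-voom, 24 with the block, 13 within that series and 21 to 131 when 1 library was left out. Without KO replicate 2 the counts were 15 and 21, and without Control replicate 4 they were 18 and 35. Of all calls 60.4% were higher, and 72.9% with library totals. Related genes called higher numbered 2, against 6 with DESeq2, 1 with the file name term, 1 with the block, 0 within that series and 1 to 3 when 1 library was left out. Those called lower numbered 0, against 2 with DESeq2 and 1 with limma-voom. The cause of these shifts was not tested.

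Apart from Rtn2, at -0.48 ± 0.46 in the main fit, signs that turned belonged to genes near no change. With library totals these were Lgi4 (0.10), Eaf1 (0.12), Hacl1 (0.068) and Gm49387 (0.039). With limma-voom, Lgi4 was at 0.26 and Rtn2 at 0.16, and with the block Lgi4 was at 0.16. Leaving out 1 library gave -0.071 to 0.42 for Cpne4, -0.29 to 0.16 for Lgi4, -0.28 to 0.012 for Phyhipl, -0.83 to 0.013 for Rtn2, -0.26 to 0.0005 for Jkamp, -0.026 to 0.19 for Polr3d, -0.069 to 0.047 for Eaf1 and -0.21 to 0.034 for Hacl1. Summed markers ran from -0.027 to 0.052 for neurons, -0.092 to 0.27 for intercalated cells and -0.22 to 0.34 for leukocytes. At 14 to 22 KO counts, Rtn1 and Lgi3 are limited by depth.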
